A study of Caenorhabditis elegans with 2 samples.

Results

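The genes described are the fatty acid desaturase genes of C. elegans, fat-1, fat-2, fat-3, fat-4, fat-5, fat-6 and fat-7, which are 7 of 19973 protein-coding genes in the annotation. They were chosen by gene name, because earlier results of the same peak lists had been seen, and their promoter peaks are therefore given as a description with no test. The values that chose them are the signal, score and rank of every peak whose summit fell in the promoter window, which reached 1000 bp upstream and 300 bp downstream from each start of a protein-coding transcript. The measurement was chromatin immunoprecipitation sequencing (ChIP-seq), which finds DNA that is recovered together with a protein, of the product of Y75B8A.6, a gene on chromosome III listed as a transcription factor target.

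All animals were of strain RW12275, whose Y75B8A.6 locus carries TY1, EGFP and 3xFLAG tags placed by CRISPR, and the antibody was against the fluorescent protein. Larvae synchronised by starvation as L1 were collected at 48 h as L4, the last larval stage, and chromatin from whole animals was sheared to 200 to 800 bp. There were 2 biological replicates of this 1 group and no second condition, and no library from animals without the tag was analysed here. In whole animals, occupancy in few cells and weak occupancy in many cells cannot be told apart, and peak lists hold no expression values against which the labelled stage or tissue could be checked.

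Fatty acid desaturases insert double bonds into fatty acyl chains. In C. elegans, FAT-5 acts on palmitoyl-CoA and FAT-6 and FAT-7 on stearoyl-CoA to make monounsaturated fatty acids. FAT-2 turns oleic into linoleic acid, FAT-1 makes the alpha-linolenic type of polyunsaturated fatty acid from the linoleic type, FAT-3 makes gamma-linolenic acid, and FAT-4 makes arachidonic acid from dihomo-gamma-linolenic acid. The animal can therefore make its polyunsaturated fatty acids from saturated ones, and these enzymes are known for their part in fat storage, membrane fluidity and growth in the cold.

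Peaks came in 4 thresholded and 4 ranked lists. The main thresholded list held 933 peaks with a median signal of 61.7, the conservative list held 798, and the thresholded lists of replicate 1 and replicate 2 held 343 and 345. The ranked lists, which hold the candidates before thresholding, had 103934 and 101822 peaks for the series, and 75570 and 56066 for replicates 1 and 2. Each peak has a signal, which is the strength its caller gave it and can be read only within its own list, and a score, which is higher the better a peak keeps its rank between paired lists and is derived from the irreproducible discovery rate (IDR). The lowest score in each thresholded list was 830. A ranked peak is only a candidate, since 77.9% of protein-coding genes had one in the promoter window in the main ranked list and 75.7% in the conservative ranked list. The same share was 62.7% in the ranked list of replicate 1 and 58.1% in that of replicate 2.

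Of the 7 desaturase genes, fat-6 alone had a thresholded peak in its promoter window. Its count of 1 of 7 in the main list stands beside 2.32% of protein-coding genes, and 1 of 7 in the conservative list beside 1.97%. Replicate 2 alone also gave 1 of 7, again fat-6, against 0.946% of protein-coding genes, and replicate 1 alone gave 0 of 7 against 0.886%. Nothing is read from these shares, since the genes were chosen with them in view. All 7 genes had at least 1 candidate in every ranked list.

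The main-list peak of fat-6 lay inside the gene, close to the start of a short transcript. The gene (WBGene00001398) runs from chrIV:11913692-11915687 on the minus strand of ce11, and has 3 annotated starts, so that its window covers 2317 bp. The peak at chrIV:11914965-11915220 had its summit at 11915093 in a coding exon, 594 bp downstream of the first start and 74 bp downstream of the start of transcript VZK822L.1b.1. Its signal was 54.3 and its score 988. It ranked 679 of 933 in the main list, so it was weaker than the middle of that list, and 861 of 103934 in the ranked list, within the top 0.828%. By the signal of the best promoter peak, fat-6 was gene 402 of 19973. The same summit lay 854 bp upstream of the start of ZK822.9, a short protein-coding gene on the other strand, so the peak falls in the window of both genes.

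The conservative list called fat-6 through another interval. That peak lay at chrIV:11915481-11915736 with its summit 78 bp downstream of the first start, in the coding sequence that the full-length transcript begins with, and its signal was 24.2. Its score was 930 in the ranked list behind the conservative list and 191 in the one behind the main list. The main-list interval did the opposite, with a score of 988 in its own ranked list and 575 in the conservative one. Each series list therefore held fat-6 by a peak that scored under 830 in the other. The conservative-list peak also lay 338 bp upstream of ZK822.9, and it ranked 770 of 798 by signal.

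The sequence under both summits is shown because they carry the promoter-window calls of the series lists. It is the minus strand of the RefSeq genome of WBcel235, which is ce11, 5′ to 3′, and the capitals mark the GATA-factor motif TGATAA on either strand. The main-list peak, at chrIV:11914965-11915220, holds 121 coding bases, and the 101 bases around the conservative-list summit, at chrIV:11915559-11915659, are all coding.
fat-6 main-list peak: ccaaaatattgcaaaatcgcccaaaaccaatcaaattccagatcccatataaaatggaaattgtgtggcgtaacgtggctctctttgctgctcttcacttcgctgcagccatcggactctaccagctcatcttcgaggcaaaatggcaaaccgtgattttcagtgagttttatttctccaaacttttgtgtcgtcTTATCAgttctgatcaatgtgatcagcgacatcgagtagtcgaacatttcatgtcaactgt
fat-6 conservative-list summit: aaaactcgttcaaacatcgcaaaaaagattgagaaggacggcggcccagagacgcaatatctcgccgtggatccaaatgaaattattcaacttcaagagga

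The main-list peak held 1 TGATAA match, as TTATCA on the strand shown. The motif was also present in 20.2% of the 933 regions of 256 bp around the main-list summits and in 25.6% of equally long regions centred on the starts of protein-coding genes, so the share under the summits was below that at starts. The 3 other motifs searched on both strands had no match in the peak. These were CACGTG, present in 9.97% of summit regions and 5.42% of start regions, AGGTCA, in 7.07% and 6.89%, and GTAAACA, in 2.68% and 3.32%. The GC content of the peak was 42.2%, close to the median of 42.6% for main-list regions and above the 35.5% for regions at gene starts.

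The replicates placed their strongest fat-6 candidates at different points. In replicate 2 the best summit was at 11915085, 8 bp from the main-list summit, with a signal of 48.0 and a score of 1000, and it ranked 107 of 345 in the thresholded list of replicate 2. In replicate 1 the candidate nearest the main-list summit was 43 bp away, with a signal of 18.5, a rank of 10766 of 75570 and a score of 148. The best candidate of replicate 1 was instead in an intron at 11915424, with a signal of 37.7, a rank of 505 of 75570 and a score of 504. Both replicates thus had a candidate of fat-6 high in their own ranked list, in the top 0.668% for replicate 1 and the top 0.309% for replicate 2, at summits 339 bp apart. A further main ranked candidate, at 11914454 in a coding exon, had a signal of 46.4 and a score of 609, with a candidate of 18.5 in replicate 1 and of 19.7 in replicate 2 within 100 bp.

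**Figure D1:**
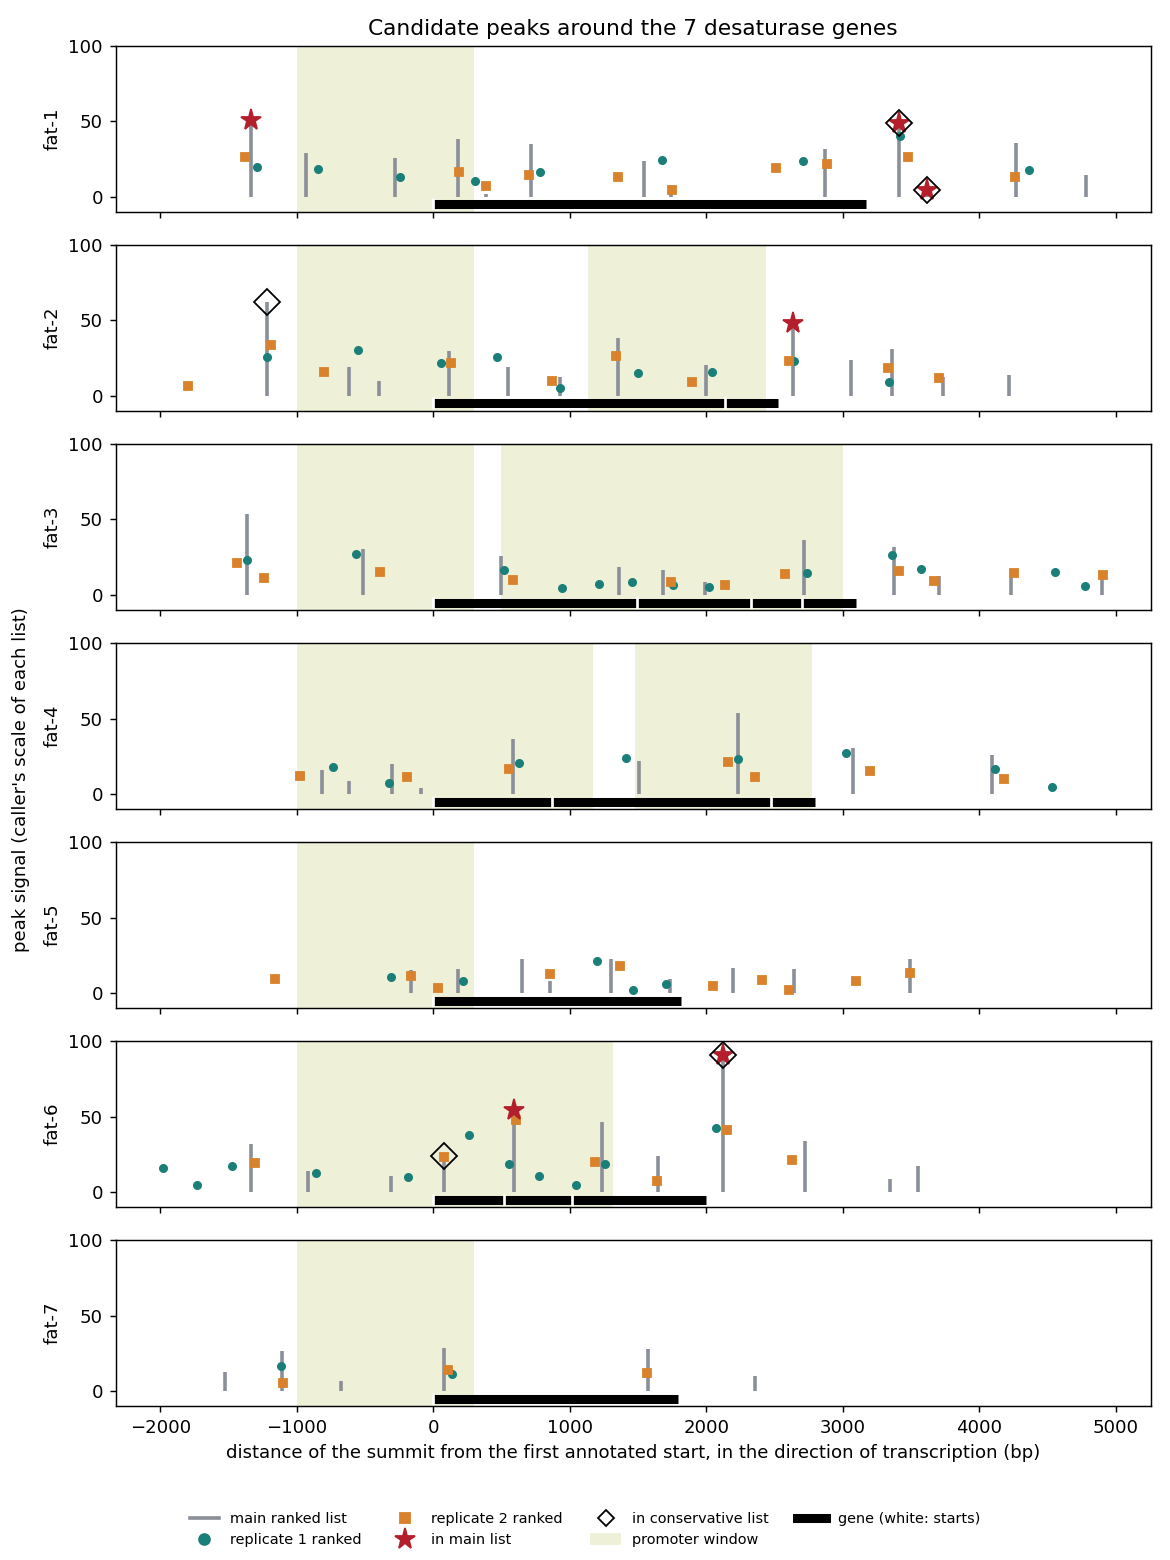
Summits around each desaturase gene by distance from its first annotated start (bp, x axis) and signal on the caller's scale of each list (y axis). Grey lines are the main ranked list, circles and squares the ranked lists of replicates 1 and 2, stars the main list and diamonds the conservative list; shading marks promoter windows and the black bar the gene with its starts in white. The star and the diamond inside the fat-6 window are at different summits, and the highest star is past the end of fat-6.

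The internal starts decide where fat-6 stands in the main list and in the ranked lists of the series. With 1 start per gene, the first, the main-list peak fell out of the window, the best candidate of fat-6 was the conservative-list summit with a signal of 24.2, and fat-6 moved from the top 0.828% to the top 22.4% of the main ranked list. In replicate 1 the best candidate was unchanged at 37.7, in the top 0.668%, and in replicate 2 it was 23.0, in the top 4.03%. With 1 start per gene, fat-6 thus still stood high in the ranked list of each replicate. Of protein-coding genes, 73.7% have only 1 annotated start, so genes with several starts, as fat-6, fat-4, fat-3 and fat-2 have, are given more sequence in which a candidate can lie.

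fat-7, the other stearoyl-CoA desaturase and the nearest relative of fat-6 in coding sequence, had no thresholded peak within 2000 bp of the gene. fat-7 (WBGene00001399; chrV:7151353-7153146, minus strand) has 1 start. Its best candidate, with the summit at 7153071, 75 bp downstream of the start in a coding exon, had a signal of 28.5 and a score of 129, and ranked 13329 of 103934. It had 11.2 in replicate 1, with a score of 19, and 14.2 in replicate 2, with a score of 44. The values of fat-7 were below those of fat-6 in both replicates.

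The coding sequences of fat-6 and fat-7 were identical at 84.6% of aligned positions, the highest of the pairs among the 7 genes, and fat-5 and fat-6 came next with 67.4%. The main-list peak of fat-6 aligned to fat-7 with 177 identical of 250 bp, or 70.8%, at chrV:7152683-7152944. The nearest fat-7 candidate summit, at 7153071, was not inside that stretch. All stretches of 50 bp in the fat-6 peak were unique in the genome, as were all in the windows of every desaturase gene but fat-1, where 98.96% were. The bases around the best fat-7 candidate summit, chrV:7153021-7153121 on the minus strand, are shown to set beside the fat-6 sequence that lies at nearly the same distance from its start.
fat-7 best candidate summit: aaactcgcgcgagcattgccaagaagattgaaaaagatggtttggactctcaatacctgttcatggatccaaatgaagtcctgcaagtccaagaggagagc

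fat-5, the palmitoyl-CoA desaturase gene (WBGene00001397; chrV:17725004-17726818, plus strand, 1 start), had the lowest best promoter signal of the 7, though not the lowest score, as its 263 was above the best scores of fat-3 and fat-7, 254 and 129. Its best main ranked candidate had a signal of 16.3, a rank of 54465 of 103934 and a score of 263. The best signal was 10.8 in replicate 1 and 11.5 in replicate 2. The fat-5 value in the main ranked list was below the median of 22.2 over the best candidates of all protein-coding genes that had one, and those in the replicates were below the medians of 14.6 and 13.0. No thresholded peak lay within 2000 bp of fat-5.

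fat-2, which makes linoleic acid, had high-ranking candidates in both replicates, but the best of each lay at different places. The gene (WBGene00001394; chrIV:13323873-13326395, plus strand) has 2 starts. Its best main ranked candidate, at 13325225 in a coding exon, had a signal of 38.4 and a score of 534. The best candidate of replicate 2 lay 12 bp from it, with a signal of 26.5. The best candidate of replicate 1 lay upstream of the gene at 13323321, with a signal of 30.2 and a score of 436. These were within the top 2.25% of replicate 2 and the top 1.67% of replicate 1. Outside the window, the conservative list held a peak 1216 bp upstream of the first start, with a signal of 62.2 and a score of 885, which scored 715 in the main ranked list.

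fat-1 (WBGene00001393; chrIV:13315644-13318811, plus strand), whose enzyme acts on products of FAT-2, lies upstream of fat-2, with an annotated pseudogene between them. Its best promoter candidate, 182 bp downstream of its only start in a coding exon, had a signal of 38.1 but a score of 84. The candidate of highest score, 488, lay 283 bp upstream with a signal of 25.8. The best signal was 18.3 in replicate 1 and 16.2 in replicate 2, each outside the top 10% of its list, at 14.9% and 18.6%. The main list held a peak 1334 bp upstream of the start, with a signal of 51.2 and a score of 861, which the promoter window does not reach.

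fat-4 was the gene just outside the threshold. fat-4 (WBGene00001396; chrIV:9799429-9802226, plus strand, 3 starts) had its best candidate at chrIV:9801530-9801785, in an intron, 247 bp upstream of the start of the short transcript T13F2.1c.1 and 2229 bp downstream of the first start. Its signal of 53.4 was next to the 54.3 of fat-6, at rank 901 of 103934, but its score was 767 against the 988 of fat-6, with global IDR values of 0.0142 and 0.00417. In the conservative ranked list it scored 599. Replicate 1 had a candidate 1 bp from this summit with a signal of 23.0 and a score of 85, and replicate 2 one 73 bp away with a signal of 21.1 and a score of 355. By signal, the best fat-4 candidate thus had similar standing in both replicates, in the top 5.79% and the top 5.94%. Its scores of 85 and 355 were less alike, and in no list did fat-4 reach 830.

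The fat-4 peak is shown because it is the strongest desaturase candidate that was not called. It is the plus strand of the same genome, all noncoding, with TGATAA in capitals.
fat-4 best candidate peak: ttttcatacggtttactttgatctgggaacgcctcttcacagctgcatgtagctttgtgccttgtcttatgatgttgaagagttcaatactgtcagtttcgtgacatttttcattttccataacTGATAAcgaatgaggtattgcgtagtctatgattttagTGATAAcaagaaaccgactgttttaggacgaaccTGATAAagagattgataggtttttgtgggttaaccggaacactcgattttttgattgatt

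The fat-4 peak held 3 matches to TGATAA, against 1 in the fat-6 peak, and its GC content was 37.1%. It held no match to the 3 other motifs. The shares given above for other regions count any match, so they set no background for 3 matches, and nothing is read from the difference. With 1 start per gene, the peak fell out of the window and the best fat-4 candidate had a signal of 20.0, in the top 36.3% of the main ranked list.

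fat-3, which makes gamma-linolenic acid, follows fat-4 on the same strand (WBGene00001395; chrIV:9803023-9806119, 4 starts), and no thresholded peak lay within 2000 bp of either gene. The best fat-3 candidate, 17 bp downstream of the start of W08D2.4c.1 in a coding exon, had a signal of 36.4 and a score of 184. Replicate 1 gave its best fat-3 signal, 27.2, in the upstream region between the genes, in the top 2.71%, and replicate 2 gave 15.5, in the top 21.6%, in the same region. The summits lay 177 bp apart. That region is within 500 bp past the end of fat-4 and in the window of fat-3, so its candidates count for both genes.

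Over the 7 genes, the best promoter signal in the main ranked list was ordered fat-6, fat-4, fat-2, fat-1, fat-3, fat-7 and fat-5. The neighbours fat-6 and fat-4, at 54.3 and 53.4, were within 1 unit, as were fat-2 and fat-1, at 38.4 and 38.1. With 1 start per gene the main ranked order turned to fat-1 at 38.1, fat-3 at 30.4, fat-2 at 29.9, fat-7 at 28.5, fat-6 at 24.2, fat-4 at 20.0 and fat-5 at 16.3, so that fat-7 stood above fat-6. In each replicate fat-6 stayed first with 1 start per gene. Its signals were then 37.7 in replicate 1 and 23.0 in replicate 2, where fat-7 had 11.2 and 14.2. fat-2 came next with 30.2 and 22.1, so in replicate 2 it was within 1 unit of fat-6. The orders over all starts also differed between the replicates. Replicate 1 gave fat-6, fat-2, fat-3, fat-4, fat-1, fat-7 and fat-5, and replicate 2 gave fat-6, fat-2, fat-4, fat-1, fat-3, fat-7 and fat-5. fat-6 and fat-2 were first and second in both replicates and fat-7 and fat-5 last in both.

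**Figure D2:**
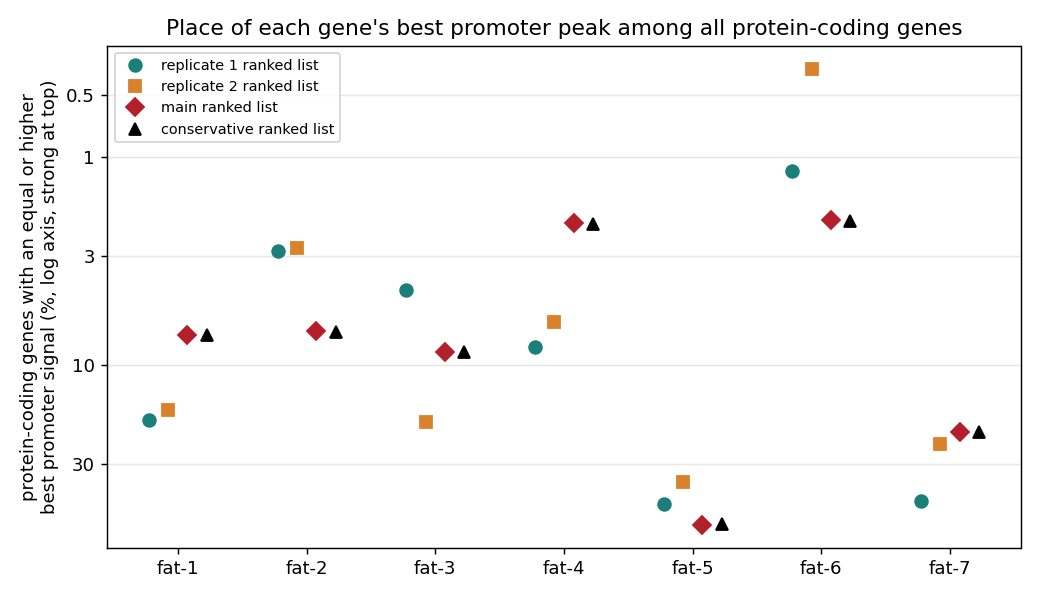
Share of all protein-coding genes whose best promoter peak had an equal or higher signal than that of each desaturase gene (%, log axis, strong at the top), in each ranked list. fat-6 is highest in all 4 lists, at 1.17% in replicate 1 and 0.376% in replicate 2, and fat-5 is lowest in all 4.

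The median best promoter signal of the 7 genes was 38.1 in the main ranked list, where the median of all protein-coding genes with a candidate was 22.2 and the 90th percentile was 37.3. In replicate 1 the medians were 23.0 and 14.6, and in replicate 2 they were 16.2 and 13.0. The median of the 7 was above that of all genes in each list, although fat-5 was below it in all 3 and fat-7 in replicate 1. Of the 7 genes, 4 have more than 1 start, and nothing was tested on these values. Of the 30 main ranked candidates in the 7 windows, 9 had a candidate of both replicates within 100 bp, 12 of replicate 1 only, 4 of replicate 2 only and 5 of neither. The share with both was 30%, beside 19.5% of the 30323 candidates in the windows of all protein-coding genes.

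**Figure D3:**
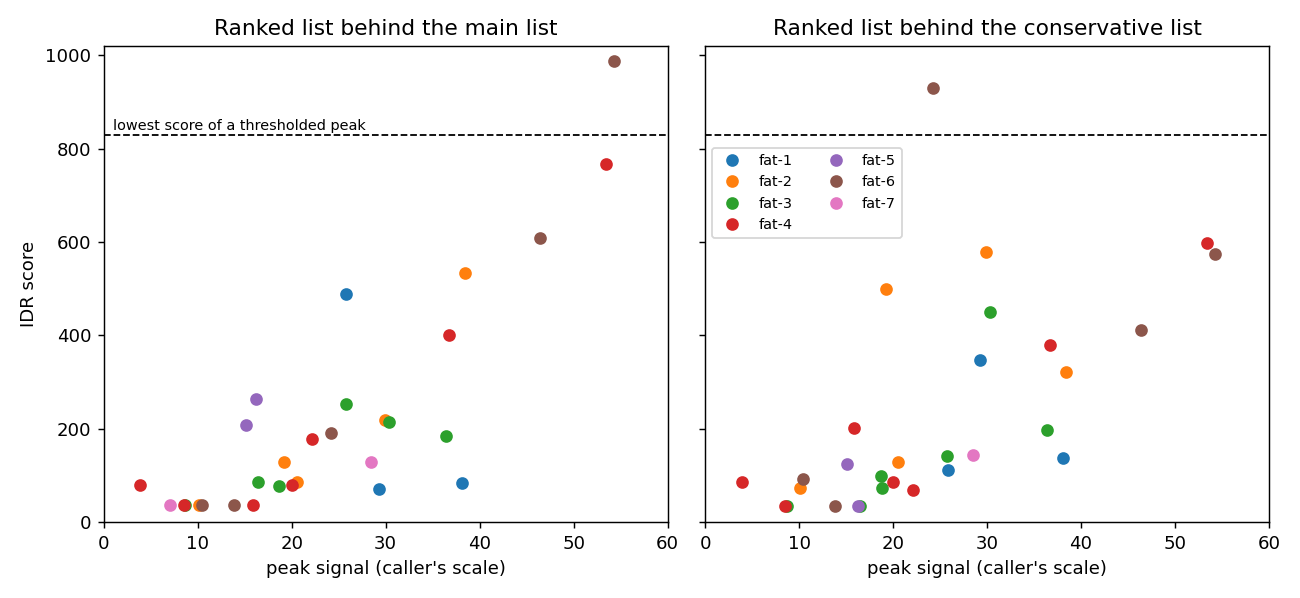
Signal on the caller's scale (x axis) and IDR score (y axis) of each candidate in the desaturase promoter windows, in the main ranked list (left) and the conservative ranked list (right), with the lowest thresholded score of 830 dashed. In each panel 1 point, of fat-6, is over the line, at a signal of 54.3 on the left and 24.2 on the right, and fat-4 is the next highest score in both.

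Peaks past the ends of the genes, which the promoter window mostly does not take in, held more calls than the starts in the main and conservative lists, and as many in the thresholded lists of the replicates. With the promoter window widened to 2000 bp upstream and 500 bp downstream, the starts also held 3 main-list genes of the 7. The share of all protein-coding genes was then 3.41%. The fat-2 summit among the 3 lay 496 bp downstream of the start of W02A2.1b.1. It is the same summit that lies 110 bp past the end of fat-2, so it is counted at both the start and the end. A main-list summit lay within 500 bp past the annotated end of 3 of 7 genes, fat-1, fat-2 and fat-6, beside 1.49% of protein-coding genes. The conservative list gave 2 of 7, fat-1 and fat-6, beside 1.35%. Replicate 2 alone gave 1 of 7, fat-6, beside 0.626%, and replicate 1 alone gave 0 of 7 beside 0.571%. These positions were looked at after the peaks had been seen, so the counts are a description.

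The peak past the end of fat-6 had a higher signal than any in the promoter window in the series lists and in replicate 1, and a lower one in replicate 2. Its summit at 11913564 lay 128 bp past the end, with a signal of 90.6 and a score of 1000, at rank 132 of 933 in the main list and 133 of 798 in the conservative list. By the best peak past the end, fat-6 was gene 48 of 19973. The same summit lay within 500 bp past the end of VZK822L.2, at 11913202. That protein-coding gene is on the other strand, so the peak counts for both genes. The signal was 42.3 in replicate 1, with a score of 39, and 41.0 in replicate 2, with a score of 867. Both replicates thus had a strong peak there, in the top 0.439% and the top 0.514%, while the score in replicate 1 was far below 830.

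At fat-1 the main-list summit 248 bp past the end had a signal of 48.8 and a score of 1000, and a weaker one 449 bp past the end had 4.76 with the same score. The stronger one had 40.6 in replicate 1 and 26.2 in replicate 2. The best values in the promoter window of the same gene were 18.3 and 16.2, lower in both replicates, at summits 1031 bp apart. The peak 1334 bp upstream of fat-1, outside the window, was as strong as the end peak in the main list, at 51.2 against 48.8, and replicate 2 had 26.8 there against 26.2 at the end, while replicate 1 had 19.6 against 40.6. The nearest annotated start downstream of the end peak of fat-1 on the same strand was that of a pseudogene, 1099 bp on. At fat-2 the main-list summit 110 bp past the end had a signal of 48.4 and a score of 848, with 23.1 in replicate 1 and 23.0 in replicate 2, below the best promoter values of fat-2 in both.

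**Figure D4:**
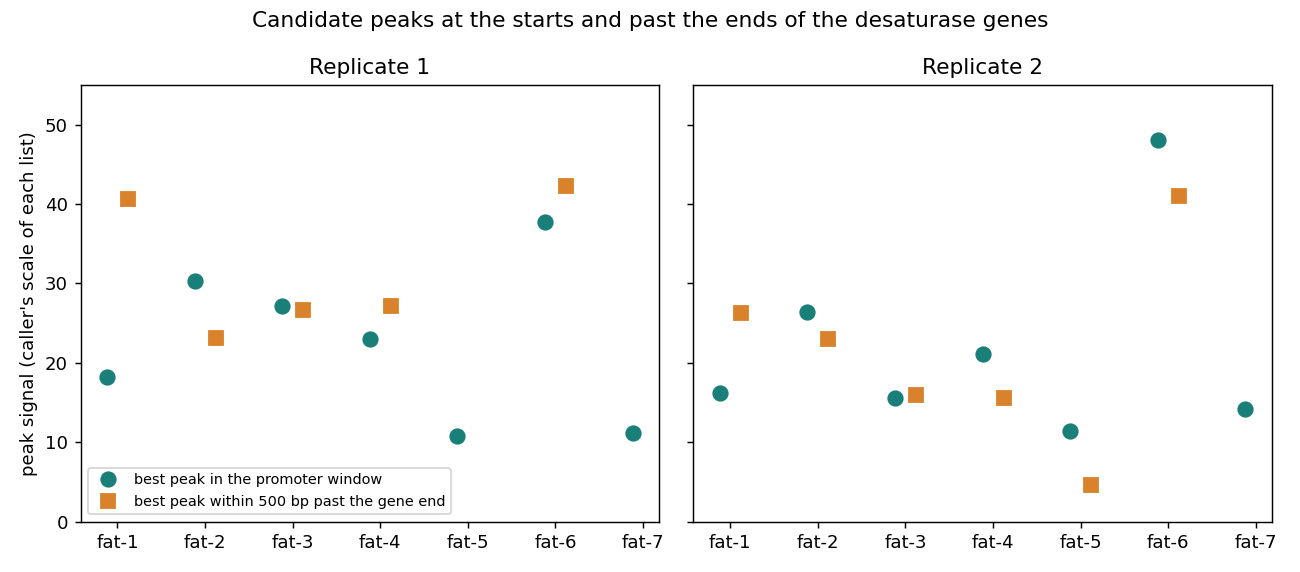
Signal on the caller's scale of the best candidate in the promoter window (circles) and within 500 bp past the gene end (squares), for each desaturase gene and replicate. The square of fat-1 is above its circle in both replicates, that of fat-2 below it in both, and that of fat-6 is above in replicate 1 (42.3 against 37.7) and below in replicate 2 (41.0 against 48.0); missing squares are genes with no candidate there.

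Of the other genes, fat-3 had a candidate past its end with a signal of 31.8, fat-4 one of 30.4 in the region it shares with fat-3, fat-5 one of 16.6 and fat-7 none. The fat-5 candidate lay inside a protein-coding gene of the other strand. That of fat-3 lay just past the end of another such gene. Over all protein-coding genes, 51.9% had a main ranked candidate past the end, with a median signal of 19.1.

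The genes whose promoter candidates stood most like those of fat-6 in the ranked lists of both replicates were ZK822.9, which shares its peaks, gst-27, a glutathione S-transferase gene, grl-26, a gene of the hedgehog-related groundhog-like family, ears-2, a glutamyl-tRNA synthetase gene, and uncp-18. The likeness was measured as the larger of the differences in top percent in the replicates, over 8716 genes with a candidate in both. It was 0.0624 percentage points for gst-27 and 0.0900 for ears-2 and uncp-18, whose best candidates had the same signal in each replicate. All 5 genes had a main-list and a conservative-list peak in the window, beside 2.32% and 1.97% of all protein-coding genes. They were picked for ranks as high as those of fat-6, so nothing is read from this.

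Genes that work beside the desaturases were called bound, which here means only a main-list summit in the window, at a share near that of all genes. Of 153 other lipid genes in 10 lists, 3 had a main-list summit in the promoter window, or 1.96%, beside the 2.32% of all protein-coding genes. None of 12 fatty acid elongation genes, 4 genes of de novo fatty acid synthesis or 3 electron carriers of desaturation was among them, nor any of 22 acyl-CoA synthetases, 16 fatty acid binding genes, 20 acyltransferases, 11 lipases or 10 genes of phosphatidylcholine synthesis. In the conservative list alone, pod-2, the acetyl-CoA carboxylase gene, had a peak with a signal of 47.5, and mboa-2, a membrane-bound O-acyltransferase gene, one with 61.0.

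Among 14 regulators of desaturase genes and membrane fluidity, 2 were bound in the main list, skn-1 and elt-2, where 2.32% of all protein-coding genes were. Of these, elt-2 was also in the conservative list and skn-1 was not. skn-1, a stress-response transcription factor gene, had its peak at chrIV:5656084-5656339, 607 bp upstream of a start, with a signal of 59.2. elt-2, which encodes the main GATA factor of the intestine, had its peak at chrX:10480671-10480926, 441 bp upstream of a start, with a signal of 57.2. Of 41 beta-oxidation genes, ech-9, an enoyl-CoA hydratase gene, was bound at chrIV:10235452-10235707, 251 bp upstream, with a signal of 52.0 and a score of 832, at a place also near the noncoding gene linc-119. The acyl-CoA dehydrogenase gene acdh-1 was in the thresholded list of replicate 1 alone, with a signal of 42.1.

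**Figure D5:**
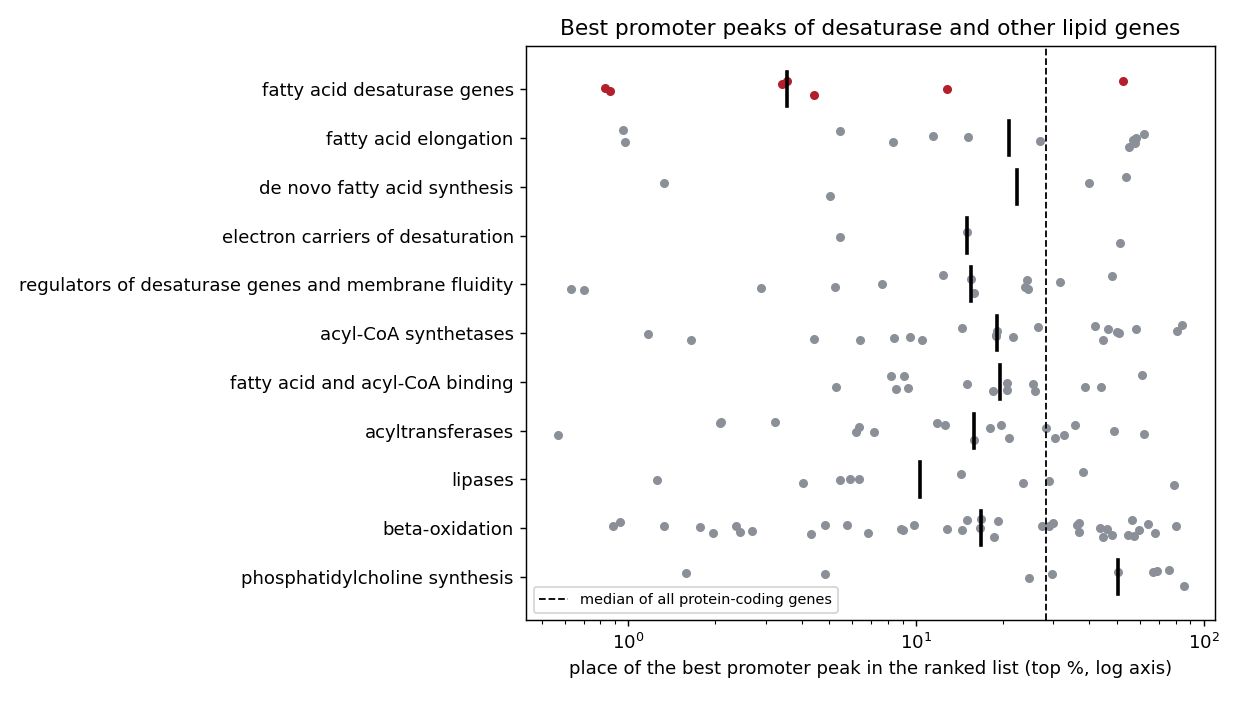
Place of the best promoter candidate of each gene in the main ranked list (top %, log axis) for the desaturase genes (red) and the other lipid lists (grey), with the median of each list as a black bar and that of all protein-coding genes dashed. The desaturase median is at 3.56%, that of all protein-coding genes at 28.4%, and the medians of the other lists run from 10.3% for lipases to 50.4% for phosphatidylcholine synthesis.

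The best main ranked candidate was in the top 3.56% at the median desaturase gene and in the top 18.6% at the median of the other lipid genes with a candidate. With 1 start per gene the medians were 12.8% for the desaturases, 20.7% for the other lipid genes and 31.2% for all protein-coding genes. In replicate 2 the desaturase median was 18.6%, behind those of the regulators at 10.5%, lipases at 12.7% and de novo synthesis at 13.1%. The desaturase genes were chosen with these values in view and have more starts than most, so the difference was not tested. Within the desaturases the range was wide, from the top 0.828% for fat-6 to 52.4% for fat-5.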

How the data were processed

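Peaks of 2 replicate libraries were deposited by the authors as 8 lists on ce11, per the labels. For aligner and peak caller, a name is not given in the sources used here. Peak signal is the deposited value of the authors' caller, on a scale that is not stated, so it was compared only within a list, and its replicate values are given side by side with no mean. The score deposited by the authors equals the transformed global IDR to within 1 in the ranked lists. The −log10 of the global IDR was deposited by the authors in the ranked lists and gave the IDR values printed. All main-list intervals occur in a ranked list made from a pairing that is not stated, and all conservative-list intervals in one that pairs replicates 1 and 2. Both libraries' lists derive from 1 shared further alignment file, per the labels. Depth is unknown, as peak lists carry no read totals, so no interval is given.

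Each peak was placed by the position of its summit, as the authors deposited it, counted from 1. Genes came from Ensembl release 115 on WBcel235, with promoter windows around the starts of protein-coding transcripts, and sequences from the RefSeq genome of the same assembly. Ranks are by signal within a list, and top percent is rank over list length. No test was made, because the members and lists were chosen with earlier results of these data known and there is 1 group. The named genes were the 7 members, genes sharing their thresholded summits, up to 4 bound genes of highest signal per lipid list, and the 5 genes most like each member with a main-list summit; pod-2, mboa-2 and acdh-1 fall outside this rule and were named after their values were seen. The window search was tested on simulated summits. Alternatives were other windows, starts, overlaps, lists, ranks and each replicate alone. Software was Biopython 1.88, matplotlib 3.10.9, pandas 2.3.3 and numpy 2.4.6 in Python 3.11.15.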

Additional observations from a re-analysis of the deposited data

How the results depend on the processing

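The count of 1 desaturase gene with a main-list summit in its window became 3 with windows of 2000 bp upstream and 500 bp downstream, through fat-1 and fat-2, and 0 with 1 start per gene or with peaks of at least the median signal; it ran from 0 to 1 with a replicate left out. The count of 463 protein-coding genes became 296 with windows of 500 bp upstream and 100 bp downstream and 267 at or above the median signal, and ran from 177 to 189 on the list of a single replicate. With the wide windows it was 681, or 3.41% of protein-coding genes. The count of 3 other lipid genes became 9, or 5.88%, with the wide windows. It was 0 at or above the median signal and 1 on either replicate's list. These follow from the sequence searched or the peaks kept. The place of the best candidate moved by more than the replicate spread for 3 of 7 genes with 1 start per gene, an alternative chosen after seeing the data, for 7 on replicate 2 alone, for 5 on replicate 1 alone, for 3 with the narrow windows, for 3 when ranked by score, where fat-7 was lowest at 24.9% and fat-5 stood at 8.18%, for 1 with the wide windows and for 0 in the other ranked list. The replicate spread is the standard deviation of the 2 replicate values of each gene. It ran from 0.107 for fat-4 to 13.7 for fat-7, so the same move can count for one gene and not for another. No paired analysis was possible because there is 1 group and no test. The limits are 2 replicates of unknown depth, no untagged control and candidates in most genes.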
